A study of Macaca mulatta with 81 samples.

Results

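The 62 genes described here encode proteins of the mitochondrial ribosome and were measured in T cells of rhesus macaques after hematopoietic cell transplant. They are all genes of the array's gene table that have a probe set naming no other gene and whose symbol begins with MRPL or MRPS and a digit, 62 of 14133 genes, with 40 of the large subunit (MRPL) and 22 of the small subunit (MRPS) by symbol. Where a gene had several probe sets, the one with the highest mean over all arrays was taken, so that 62 of 97 probe sets were used. All 62 genes passed the filter on low signal and were tested among 11807 genes.

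The mitochondrial ribosome, or mitoribosome, translates the few proteins encoded by mitochondrial DNA, which are membrane subunits of the respiratory chain complexes and of ATP synthase. Its own proteins are encoded in the nucleus, made in the cytosol and imported, so the mRNAs measured here come from nuclear genes. Some of them descend from bacterial ribosomal proteins and others were added in the lineage of mitochondria. Resting T cells have a small mass of mitochondria and enlarge it when they are activated and divide. MRPS18A and MRPS30 have small subunit symbols, although their proteins sit on the large subunit.

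T cells were sorted on CD3 from blood of 50 animals and gave 81 arrays, 47 from 27 animals after transplant and 34 from healthy animals, and 11 animals gave both. The allogeneic groups differed in their prophylaxis against graft-versus-host disease, with these names in the labels: Siro (Siro.F, n = 4), Tac.Mtx (D14, n = 3, D30, n = 2, and F, n = 3), Bela.Siro (D14, n = 3, D30, n = 3, and F, n = 2), Bela (Bela.F, n = 3), FR104.Siro (F, n = 4, and D14, n = 4), FR104 (F, n = 3, and D14, n = 3), and no prophylaxis (NoRx.F, n = 4). The remaining groups were autologous recipients, which received their own cells and no prophylaxis (Auto.D36 and Auto.D14, n = 3 each), and untransplanted healthy controls (Healthy.Control, n = 34). Siro is read here as sirolimus, which inhibits the growth kinase mTOR, Tac.Mtx as tacrolimus, which inhibits calcineurin, with methotrexate, and Bela as belatacept, a fusion protein that masks the ligands of CD28; FR104 is an antibody fragment against CD28 itself. D14, D30 and D36 are days after transplant and F is a final sample whose day is not given; the FR104.Siro.D14 arrays were taken on days 14, 14, 22 and 34, and 1 Bela.Siro.D30 array on day 29. Doses and conditioning are not given in the labels used here.

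Signals are log2 values, on which a difference of 1 is a 2-fold change, and differences between groups are from a limma fit with batch as a term, given ± SE. The T cell marker list of 6 genes did not include CD4, CD8A and CD8B, which were measured. Of the listed 6, only CD5 had a single-gene probe set (mean 10.34 in NoRx.F, 10.79 in healthy controls). The sort could thus not be checked on CD3 itself. In 8 arrays the control transcripts added during labelling exceeded the highest healthy array: Auto.D14 replicate 202, Bela.Siro.F replicate 38, FR104.D14 replicate 23, FR104.Siro.F replicate 29 and the whole FR104.Siro.D14 group. Each transplant group lay in batch 3 or batch 4, apart from NoRx.F and Siro.F, which were spread over batches 1 and 2, while healthy controls were in all 4 batches. In sorted bulk RNA a change in the share of a cell subset and a change in RNA per cell cannot be told apart.

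The largest response of these genes was in recipients without prophylaxis. In NoRx.F 50 of the 62 genes were higher than in healthy controls and 0 lower (80.6% of the family, against 20% of all genes tested that were called higher). The median difference over the family was 0.51 (1.42-fold), against 0.05 over all genes, and 58 of the 62 differences were positive (93.5%, against 57.3% of all genes). For 27 genes every NoRx.F array lay above every healthy array, which was the case for 7.39% of all genes. Averaged over the 62 genes and set relative to the healthy controls, the 4 NoRx.F arrays were at 0.73, 0.38, 0.66 and 0.37, and the 34 healthy arrays ran from -0.17 to 0.15. The arrays of replicates 50 and 52 were thus the high ones, and none overlapped the healthy range.

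**Figure D1:**
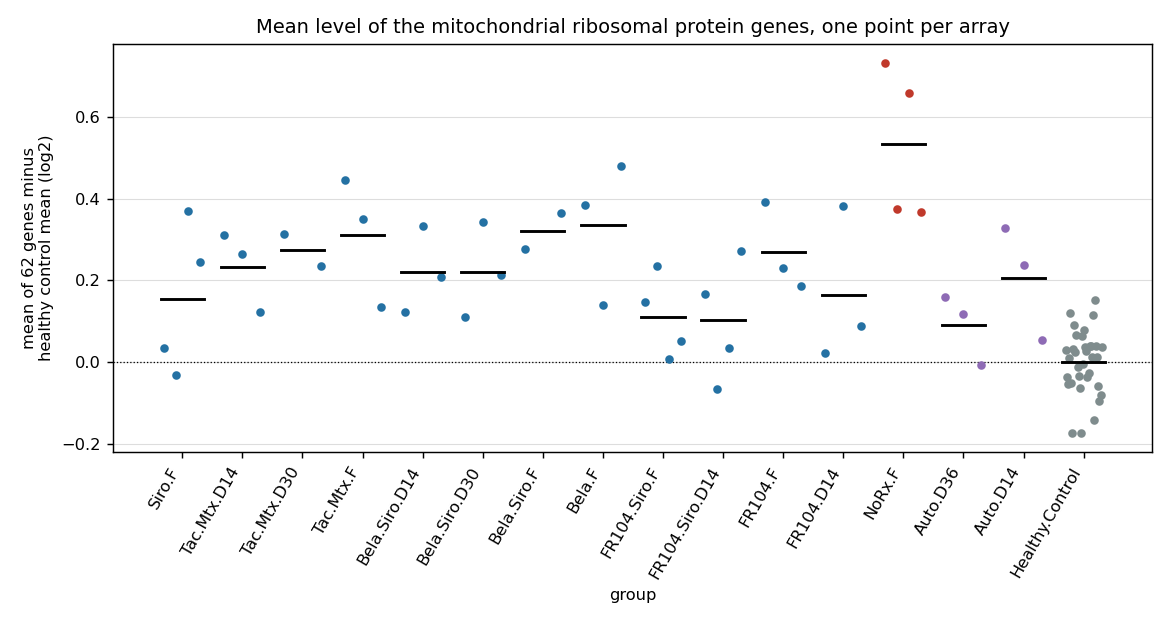
Mean log2 level of the 62 genes in each array minus the healthy control mean (y axis), by group (x axis); points are arrays and bars are group means. The 4 NoRx.F arrays lie between 0.37 and 0.73, and the healthy controls between -0.17 and 0.15.

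The count held at 40 to 50 genes when any 1 NoRx.F array was left out, and 41 genes were called within batch 1 alone. Within batch 2, where NoRx.F has 1 array (replicate 53), 11 were called. Replicate 53 also had a healthy array from the same animal and batch, and 54 of the 62 genes were higher after transplant than in that array, by a median of 0.37.

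MRPL12, the counterpart of the bacterial stalk protein that recruits translation factors, had levels of 9.88, 9.56, 9.68 and 9.45 in NoRx.F, against a range of 7.89 to 8.49 (median 8.28) in healthy controls. All 4 arrays lay above every healthy array, and the difference was 1.40 ± 0.12 (2.63-fold, adjusted p 2.06e-14). MRPS14, a counterpart of a bacterial protein of the small subunit head, had 10.36, 9.97, 10.19 and 9.74 in NoRx.F, against 8.15 to 8.99 (median 8.70) in healthy controls. Here too the groups did not overlap, and the difference was 1.39 ± 0.14 (adjusted p 6.2e-13). MRPL42, a protein without a bacterial counterpart, had 9.32, 8.85, 9.14 and 8.90 in NoRx.F and 6.65 to 8.22 (median 7.55) in healthy controls. Its healthy spread was wider (SD 0.39), and its difference was 1.53 ± 0.23 (2.90-fold, adjusted p 1.06e-07).

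Other proteins of the decoding and subunit core rose as well. MRPS12, whose bacterial counterpart lies at the decoding site, rose by 0.94 ± 0.10, with arrays at 10.74, 10.29, 10.59 and 10.15 in NoRx.F, against 9.17 to 9.89 in healthy controls. MRPS7 (0.51), MRPS16 (0.53), MRPS2 (0.43), MRPS9 (0.38) and MRPS5 (0.30), counterparts of bacterial small subunit proteins, also rose. Another probe set of MRPS16 (mean 9.27) was at 0.01 and another of MRPS5 (mean 6.89) at 0.05, and neither passed. The 3 genes related to bacterial S18 all rose, MRPS18C by 1.02 ± 0.15, MRPS18A by 0.71 ± 0.15 and MRPS18B by 0.48 ± 0.14. On the large subunit MRPL1 rose by 0.80, MRPL2 by 0.51, MRPL4 by 0.46, MRPL22 by 0.72 and MRPL23 by 0.55, all counterparts of bacterial proteins of the same number. Another probe set of MRPL4 (mean 6.03) was at 0.15 and did not pass, while a further one (mean 4.56) rose by 0.66 and passed. MRPL10 and MRPL11, which form the base of the stalk that carries MRPL12, rose by 0.39 and 0.47.

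Among proteins that mitochondria added, MRPL52 rose by 1.04, MRPL41 by 0.95, MRPL51 by 0.91, MRPL57 by 0.86 and MRPL39, which resembles a tRNA synthetase, by 0.87 on the probe set used (another fell). MRPL37 rose by 0.70 and MRPS34 by 0.65. MRPL44, related to a family of RNases, rose by 0.51, MRPS27, which has RNA-binding repeats, by 0.43, and MRPL45, thought to hold the ribosome at the inner membrane, by 0.38. The genes of the family past a 2-fold change were MRPL42, MRPL12, MRPS14, MRPL52 and MRPS18C, and the share of all genes past it is not given here. By subunit, 34 of 40 MRPL genes (median 0.52) and 16 of 22 MRPS genes (median 0.44) rose. By origin, 31 of 34 genes with a bacterial counterpart (median 0.54) and 19 of the 28 others (median 0.43) rose; that split was drawn after the values were seen and was not tested.

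**Figure D2:**
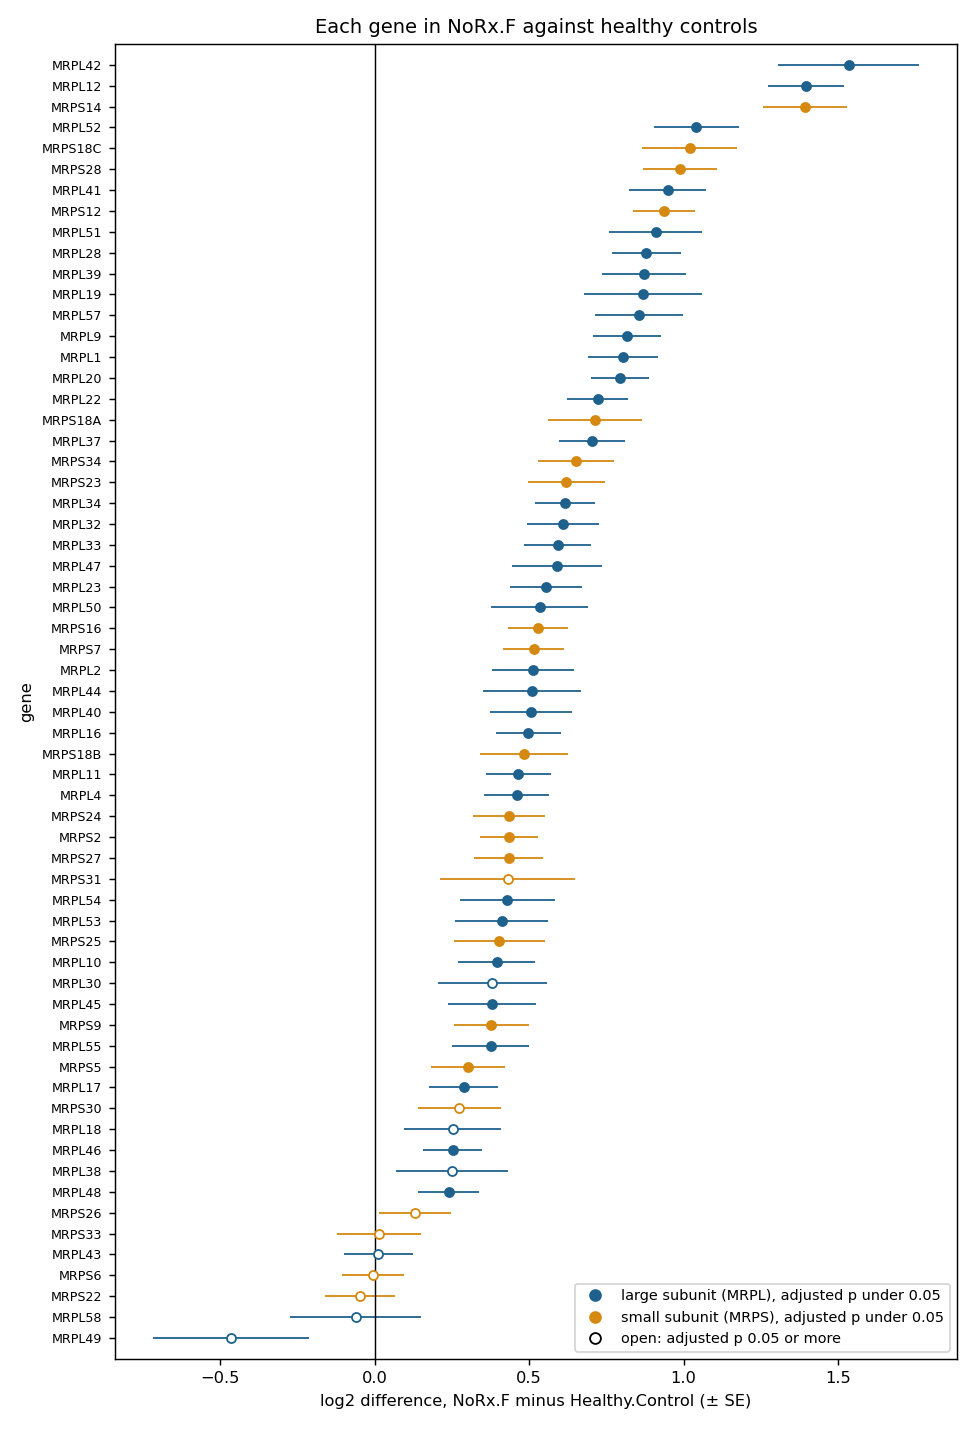
Log2 difference between NoRx.F (n = 4) and healthy controls (n = 34) for each of the 62 genes, with SE bars from the limma fit. Filled points passed an adjusted p under 0.05; 50 genes lie to the right of 0 and filled, led by MRPL42, MRPL12 and MRPS14, and 4 points lie to the left of 0, none of them filled.

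For 12 of the 62 genes the NoRx.F difference did not pass. MRPL58, which frees peptides from stalled mitoribosomes, was at -0.06 ± 0.21, MRPS22 at -0.05 ± 0.11, MRPL43 at 0.01 ± 0.11 and MRPS33 at 0.01 ± 0.14. MRPL49 had 4.71, 4.66, 5.51 and 5.72 in NoRx.F, against 4.61 to 6.54 in healthy controls, and a difference of -0.47 ± 0.25 (adjusted p 0.151). Those values overlap throughout. MRPS6 lay near background, with a mean of 4.43 in NoRx.F and 4.44 in healthy controls, where the filter stood at 4.65. MRPS26, MRPL38, MRPL18, MRPS30, MRPL30 and MRPS31 had positive differences of 0.13 to 0.43 that did not pass. Another MRPS26 probe set rose by 0.56 and passed.

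Other parts of the mitochondrial translation apparatus held genes that rose and genes that fell, beside 20% of all genes that rose and 15.4% that fell. Of 4 mitoribosomal proteins with other symbols, 3 rose in NoRx.F: CHCHD1 by 1.31 ± 0.14, AURKAIP1 by 0.75 ± 0.13 and GADD45GIP1 by 0.53 ± 0.11, while DAP3 was at 0.28 ± 0.14 (adjusted p 0.106). Of 12 mitochondrial translation factors 5 rose and 3 fell, with the elongation factors TSFM at 1.27, TUFM at 0.58 and GFM1 at 0.40. Of 14 mitochondrial tRNA synthetases 5 rose and 2 fell (35.7% and 14.3%), and of 17 assembly factors 2 rose and 1 fell (11.8% and 5.88%), shares that for the fallen synthetases and for the assembly factors lie below those of all genes. None of 4 mitochondrial transcription genes rose and 1 fell. The nuclear regulators NRF1 (-0.18 ± 0.12), GABPA (-0.12 ± 0.17) and YY1 (-0.02 ± 0.10), known to bind promoters of mitochondrial genes, did not pass, and MYC fell by 1.48 ± 0.29 (adjusted p 2.34e-05).

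Of 36 cytosolic ribosomal protein genes 23 fell in NoRx.F and 1 rose (median -0.18), where 15.4% of all genes fell. Of 58 oxidative phosphorylation genes 44 rose and 2 fell (median 0.58). These lists, like the family, were chosen with earlier results known, and the counts are given as descriptions.

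Several measures moved with the family in NoRx.F. All 11 measured proliferation genes rose (median 2.53), and their mean level relative to the healthy mean was 2.24 to 3.33 in NoRx.F and -0.50 to 0.70 in healthy controls. Of 8 monocyte and neutrophil markers 3 rose, among them S100A8 (mean 11.45 in NoRx.F and 6.84 in healthy controls). CD68 averaged 5.73 in NoRx.F and 6.59 in healthy controls, and CD14 and CSF1R also averaged lower. The mean level of the list was 6.56 to 8.52 in NoRx.F and 5.04 to 7.71 in healthy controls. CD5 fell by 0.44 ± 0.16, and CD8B averaged 11.40 in NoRx.F and 10.29 in healthy controls. Of 4 B cell markers 1 rose, while MS4A1 (4.74 against 5.04 in healthy controls), CD79A and CD22 averaged lower. Of 2 NK cell markers 1, KLRF1, fell by 2.72. RNA integrity, read from the actin probe sets as 3' signal minus 5' signal, ranged over 0.61 to 1.14 in NoRx.F and 0.43 to 3.83 in healthy controls, and 49 genes were called with it as a covariate. None of 3 erythroid and 4 platelet markers passed. The part of dividing cells and of other cell types in the family's rise was not tested.

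Recipients of prophylaxis had family medians of 0.07 to 0.32 relative to healthy controls. The largest counts at the final sample were in Bela.F and Tac.Mtx.F. In Bela.F 27 of 62 genes rose (12.4% of all genes) with a median of 0.32, and in Tac.Mtx.F 24 rose (10.7% of all genes) with a median of 0.29. MRPL12 had 9.56, 8.73 and 9.10 in Bela.F, against the healthy range of 7.89 to 8.49, and rose by 0.87 ± 0.13 (adjusted p 1.75e-06). MRPS14 rose by 0.81, MRPL52 by 0.82 and MRPS28 by 0.77 in the same group. In Tac.Mtx.F the leading genes were MRPL42 (0.86), MRPL44 (0.68), MRPL52 (0.67), MRPL57 (0.67) and MRPS28 (0.66). MRPL52 had 9.51, 9.16 and 8.61 in Tac.Mtx.F, against 8.09 to 8.66 in healthy controls, so that 2 of the 3 arrays lay above the healthy range. All 11 proliferation genes rose in Bela.F (median 2.03) and 8 of 11 in Tac.Mtx.F (median 1.21), and 30 and 25 of 58 oxidative phosphorylation genes rose. The mean level of the monocyte and neutrophil list was 7.88 to 8.45 in Bela.F, above every healthy array, and 6.42 to 8.04 in Tac.Mtx.F, against 5.04 to 7.71 in healthy controls; its part in these counts was not tested. Both counts rested on few arrays: Bela.F kept 8 calls without replicate 47 and 9 without replicate 46, and Tac.Mtx.F kept 7 without replicate 21 and 9 without replicate 20.

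In Siro.F 12 of 62 genes rose (8.26% of all genes) and the median was 0.13. MRPL57 had 10.10, 9.69, 10.36 and 10.27 in Siro.F, against 9.08 to 9.80 in healthy controls, and rose by 0.70 ± 0.14 (adjusted p 0.000166). MRPL12 rose by 0.66, MRPS28 by 0.55, MRPS14 by 0.55 and MRPL41 by 0.53. The 4 arrays split by batch: the family mean was 0.03 and -0.03 in the batch 1 arrays (replicates 17 and 16) and 0.37 and 0.25 in the batch 2 arrays (replicates 13 and 18). Within batch 1 alone 1 gene was called and within batch 2 alone 18, and 6 or 7 were called without replicate 13 or 18. All 11 proliferation genes rose in Siro.F as well (median 1.40).

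In FR104.F 8 genes rose (5.39% of all genes), led by MRPL42 (0.91), MRPL57 (0.80) and MRPS14 (0.71), and in FR104.Siro.F 4 rose (2.91%), namely MRPL57 (0.72), MRPS14 (0.47), MRPL1 (0.36) and MRPL20 (0.33). In Bela.Siro.F 6 rose (1.87%), led by MRPL42 (1.05, the 1 gene past 2-fold), MRPL52 (0.78) and MRPL57 (0.78). FR104.F kept 1 call without replicate 22 and 5 without replicate 23, and FR104.Siro.F 1 without replicate 27 or 26. Bela.Siro.F, with 2 arrays, kept 2 calls without replicate 38, whose control transcripts were high, and 0 without replicate 42. All 11 proliferation genes rose in FR104.F, 3 in FR104.Siro.F and 1 in Bela.Siro.F, and the actin measure of RNA integrity lay at 0.09 to 0.43 in FR104.F, against 0.43 to 3.83 in healthy controls. MRPL42 had 8.50 and 8.69 in Bela.Siro.F and 8.72, 8.38 and 8.26 in FR104.F, against 6.65 to 8.22 in healthy controls. Every array of both groups thus lay above the healthy range for this gene. The family means of these arrays were 0.19 to 0.39 in FR104.F, 0.01 to 0.24 in FR104.Siro.F and 0.28 to 0.37 in Bela.Siro.F. FR104.Siro.F thus overlapped the healthy range while the other 2 groups did not.

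At the early times 1 to 10 genes rose. In Tac.Mtx.D14 1 gene, MRPS28 (0.52), rose (1.4% of all genes), and in Tac.Mtx.D30 5 rose (2.85%), led by MRPL44 (0.72), MRPS12 (0.60) and MRPS28 (0.59). In Bela.Siro.D14 4 rose (1.99%), led by MRPL52 (0.53) and MRPS12 (0.51). In Bela.Siro.D30 10 rose (4.23%), led by MRPL42 (0.94), and 1 fell (2.95%), MRPL49, by 0.91 ± 0.27. In FR104.D14 MRPL20 (0.40) and MRPS14 (0.56) rose, 2 genes (2.58%). When arrays of the same animal were treated as a random block, the counts were 2 in Tac.Mtx.D14, 8 in Tac.Mtx.D30, 7 in Bela.Siro.D14 and 5 in FR104.D14. Leaving out an array gave 0 (replicate 21 or 20) or 4 (replicate 19) in Tac.Mtx.D14, 0 (replicate 19) or 1 (replicate 20) in Tac.Mtx.D30, 0 (replicate 42) or 2 (replicate 49) in Bela.Siro.D14, 1 (replicate 42 or 49) or 18 (replicate 38) in Bela.Siro.D30, and 0 (replicate 22 or 23) or 4 (replicate 24) in FR104.D14.

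In FR104.Siro.D14 6 genes rose (9.68% of the family, against 8.52% of all genes): MRPL53 (0.47), MRPS33 (0.42), MRPL12 (0.39), MRPS6 (0.32), MRPL20 (0.31) and MRPL48 (0.30). MRPS33, MRPS6 and MRPL53 were called higher in at most 1 other group, and the MRPS6 arrays were at 4.89, 4.73, 4.55 and 4.87, against 4.10 to 4.78 in healthy controls, close to background. The count moved both ways with the setting: it was 17 after renewed quantile normalization and 15 without the batch term, but 0 with the 2 arrays of day 14 alone, 0 within batch 4 alone, and 1 and 0 without replicate 26 and 27. All 4 arrays had high control transcripts.

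Autologous recipients had small differences as well. In Auto.D14 6 genes rose (2.47% of all genes): MRPS18C (0.74), MRPL57 (0.68), MRPL52 (0.60), MRPL12 (0.54), MRPS28 (0.49) and MRPL32 (0.45). MRPS18C had 10.05, 10.04 and 9.35 in Auto.D14, against 8.58 to 9.49 in healthy controls, so 2 of 3 arrays lay above the healthy range. No gene was called without replicate 201 or without replicate 202, the array with high control transcripts. In Auto.D36 7 genes rose (7.83% of all genes) and 1 fell (8.89%). MRPL58, which was not higher in NoRx.F, led the rises with 9.71, 9.13 and 9.71 in Auto.D36, against 7.79 to 9.25 in healthy controls (0.91 ± 0.25, adjusted p 0.00762). MRPS26 fell by 0.38 ± 0.14, with 10.08, 10.09 and 10.13 in Auto.D36, inside the range of 9.96 to 10.99 in healthy controls. The actin measure of RNA integrity lay at -0.34 to -0.30 in Auto.D36, below every healthy array, and 1 gene was called when it entered as a covariate, while 1, 2 and 4 were called without replicates 201, 200 and 202. Of 11 proliferation genes 9 rose in each of Auto.D36 (median 1.57) and Auto.D14 (median 1.20).

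**Figure D3:**
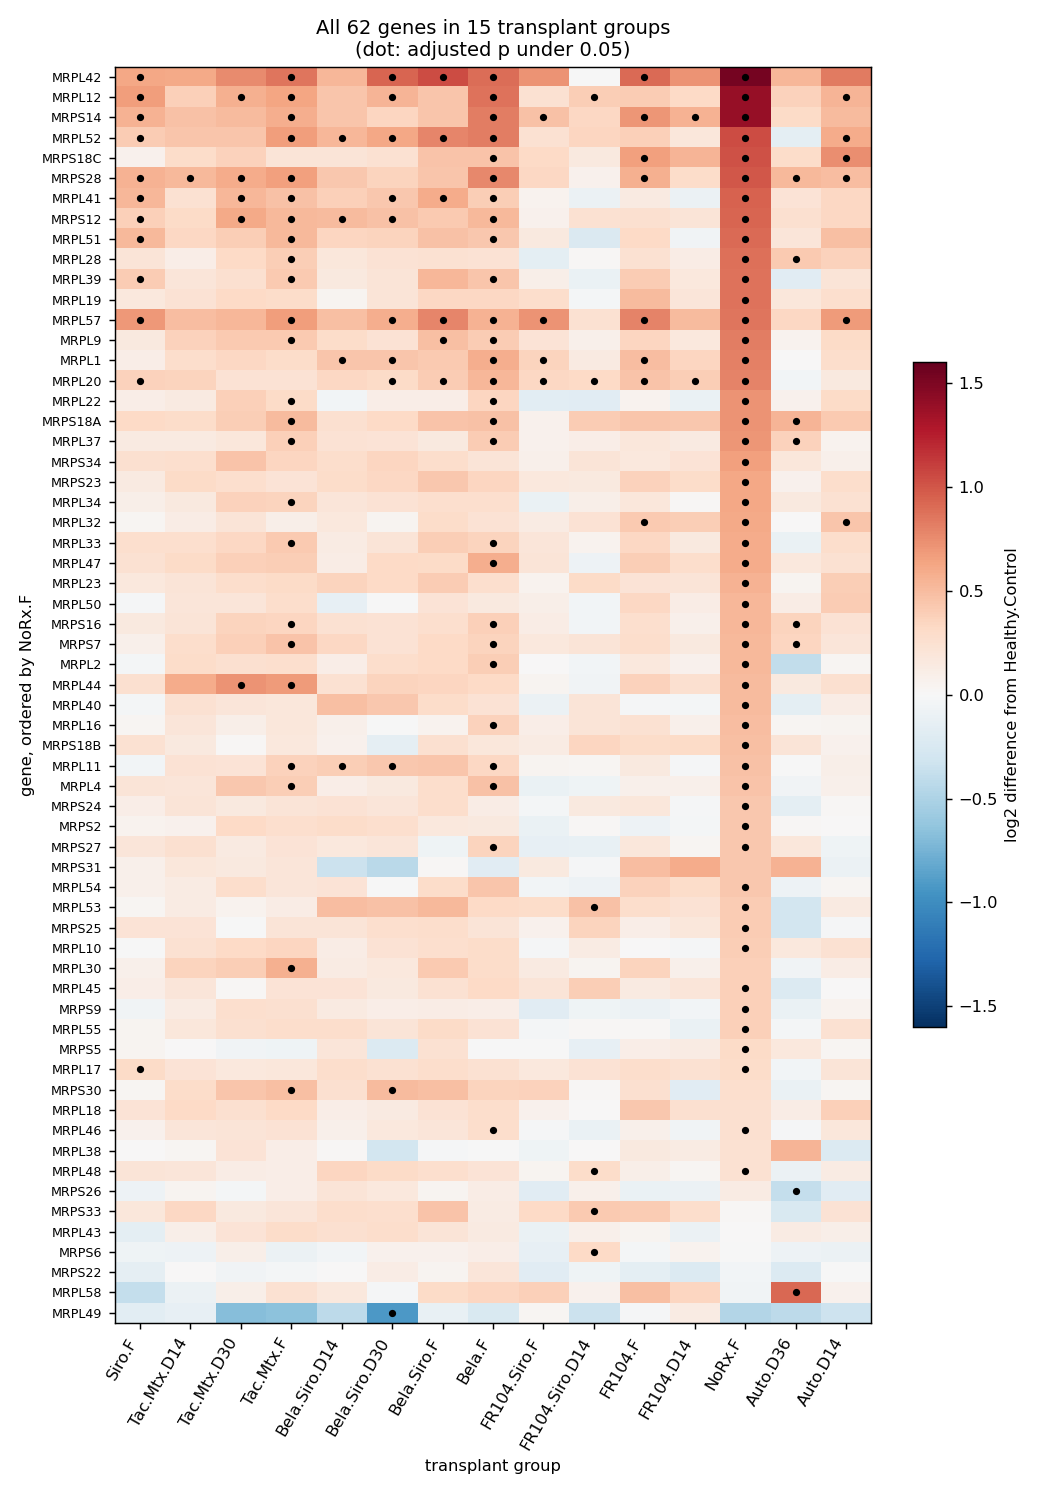
Log2 difference from healthy controls for the 62 genes (rows, ordered by NoRx.F) in the 15 transplant groups (columns), with a dot where the adjusted p was under 0.05. The NoRx.F column has 50 dots, and MRPL20, MRPL57 and MRPS28 have dots in 9 of 15 columns each.

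The 15 comparisons with healthy controls share the same controls and are not independent. On the probe sets used, 7 genes were never called higher in them: MRPL18, MRPL38, MRPL43, MRPL49, MRPS22, MRPS26 and MRPS31. A further 20 were called in 1 comparison. MRPL20, MRPL57 and MRPS28 were called in 9, MRPL12 and MRPL52 in 8, and MRPL41, MRPL42, MRPS12 and MRPS14 in 7. MRPS28, a protein of the small subunit, had 9.68, 9.46, 9.86 and 9.36 in NoRx.F, 9.44, 8.96 and 9.74 in Bela.F and 9.36, 9.35 and 9.09 in Tac.Mtx.F, against 8.28 to 9.002 in healthy controls. All but 1 of these 10 arrays lay above the healthy range. MRPL20, the counterpart of a bacterial protein needed early in large subunit assembly, had 11.29, 11.05, 11.21 and 10.82 in NoRx.F and 10.88, 10.72 and 10.68 in FR104.F, against 9.96 to 10.49 in healthy controls, without overlap. MRPL57 arrays ran from 9.86 to 10.65 in NoRx.F, from 9.69 to 10.36 in Siro.F and from 9.95 to 10.37 in FR104.Siro.F, against 9.08 to 9.80 in healthy controls. MRPL12 in FR104.Siro.F was at 8.63, 8.70, 8.45 and 8.29, which overlaps the healthy range.

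**Figure D4:**
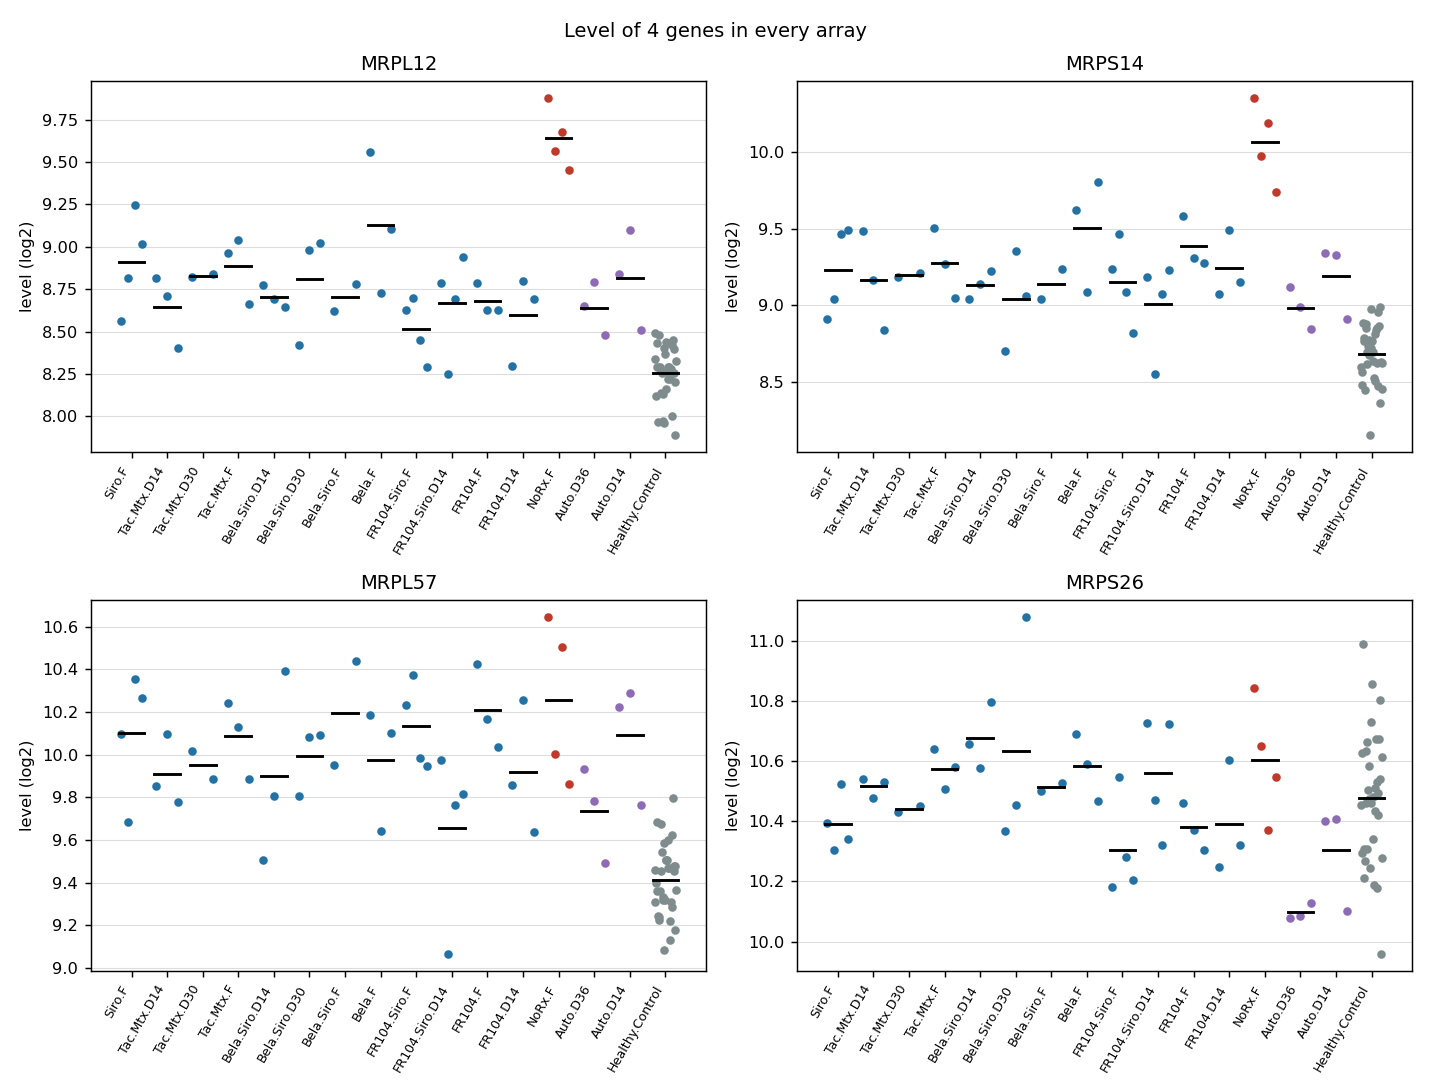
Log2 level of MRPL12, MRPS14, MRPL57 and MRPS26 in every array (points) with group means (bars), by group. MRPL12 and MRPS14 are highest in NoRx.F (9.45 to 9.88 and 9.74 to 10.36), MRPL57 is high in most transplant groups, and MRPS26 is low in Auto.D36 (10.08 to 10.13).

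Some animals had also given a healthy array, which allowed a comparison within the animal, given here as values with no test. Siro.F replicate 13 was higher than its own healthy array in 59 of 62 genes (median 0.39) and replicate 18 in 48 (median 0.16), while replicate 16, whose 2 arrays lay in different batches, was higher in 21 (median -0.10). Bela.F replicate 47 was higher in 57 genes (median 0.46) and FR104.F replicate 22 in 48 (median 0.29). Autologous replicates 201, 202 and 200 were higher in 53, 49 and 35 genes on day 14 and in 34, 31 and 38 on day 36. FR104.Siro.F replicate 28 was higher in 29 genes, fewer than were lower (33), with its arrays in different batches.

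Set directly against no prophylaxis, 27 genes were lower in Siro.F (6.67% of all genes) and 28 in FR104.Siro.F (13.1%), while 9 were lower in FR104.F (4.12%), 6 in Bela.Siro.F (3.53%), 5 in Tac.Mtx.F (2.24%) and 1 in Bela.F (0.195%). None was higher in any of these 6 comparisons, which share the 4 NoRx.F arrays. The family medians were -0.38 for Siro.F, -0.45 for FR104.Siro.F, -0.26 for FR104.F, -0.22 for Bela.Siro.F, -0.23 for Tac.Mtx.F and -0.23 for Bela.F. The groups with the smallest counts had medians of -0.22 to -0.23. Their median SE was 0.18 for Bela.F and Tac.Mtx.F and 0.20 for Bela.Siro.F, against 0.15 for Siro.F. For MRPL12 the SE was 0.18 both in FR104.Siro.F, with 28 genes called, and in Bela.F, with 1. The part of precision in these counts was not tested.

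**Figure D5:**
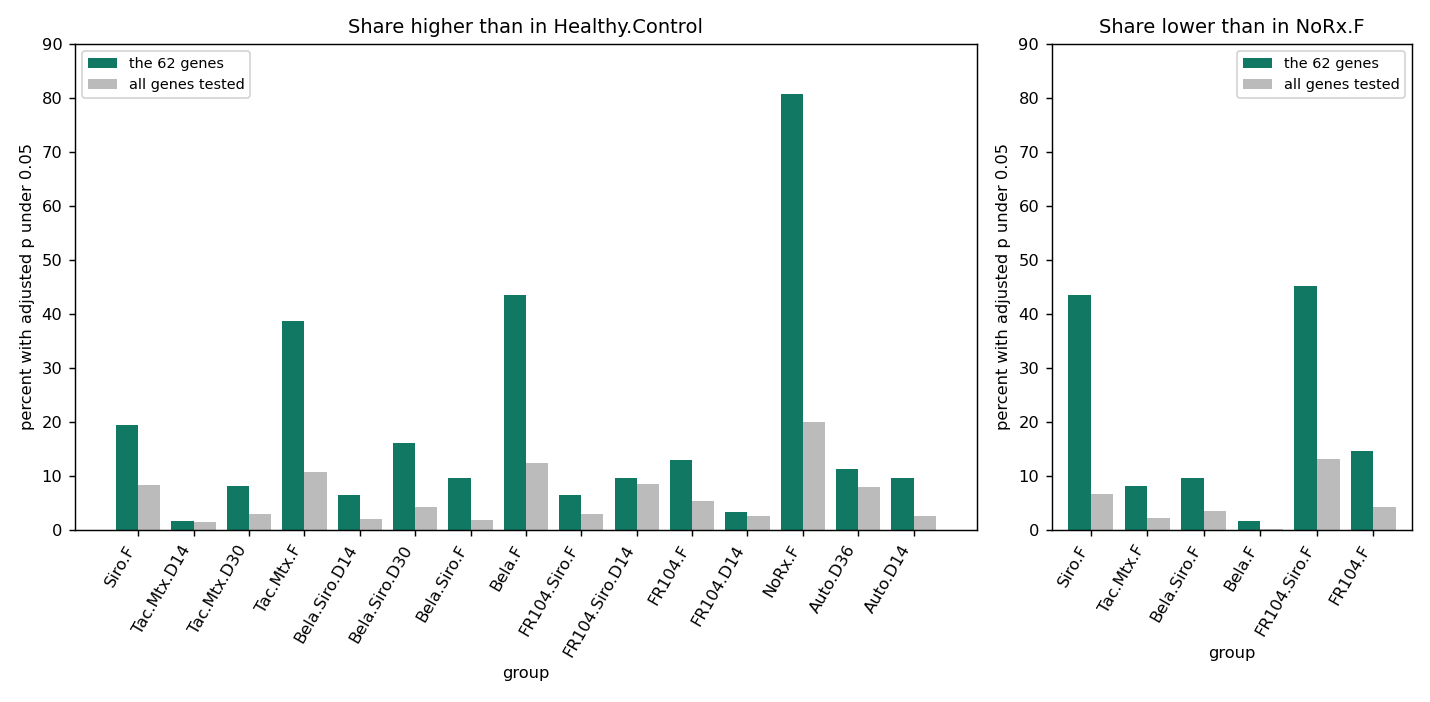
Percent of the 62 genes (green) and of all 11807 genes tested (grey) called higher than in healthy controls (left) or lower than in NoRx.F (right), at an adjusted p under 0.05. The family's share is 80.6% in NoRx.F, against 20% of all genes.

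In Siro.F against NoRx.F the leading genes were MRPS18C (-0.95 ± 0.19), MRPL42 (-0.91 ± 0.28), MRPS14 (-0.84 ± 0.17), MRPL12 (-0.73 ± 0.15), MRPL19 (-0.71 ± 0.23) and MRPL1 (-0.69 ± 0.14). MRPS18C had 8.95, 8.76, 9.46 and 9.41 in Siro.F, against 10.51, 9.93, 10.19 and 9.71 in NoRx.F, and the groups did not overlap. For 16 genes every Siro.F array lay below every NoRx.F array, as for 7.48% of all genes. Within batch 1 alone 27 genes were called, and there the family means of the Siro.F arrays lay below those of all NoRx.F arrays. Batch 2 holds 1 NoRx.F array, replicate 53. Its family mean was about that of Siro.F replicate 13 and above that of replicate 18. The difference thus lay mostly in the batch 1 arrays, and the part of batch in it was not tested. Without 1 array the count was 13 (NoRx.F replicate 50), 17 (NoRx.F replicate 52), 15 (Siro.F replicate 17) and 14 (Siro.F replicate 16). Of 11 proliferation genes 8 fell alongside (median -1.27), as did 28 of 58 oxidative phosphorylation genes, while 14 of 36 cytosolic ribosomal protein genes rose and 1 fell, where 5.39% of all genes rose.

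In FR104.Siro.F against NoRx.F the leading genes were MRPL12 (-1.15 ± 0.18), MRPL28 (-1.04 ± 0.16), MRPS14 (-0.92 ± 0.20), MRPL22 (-0.90 ± 0.15), MRPL41 (-0.89 ± 0.18) and MRPS12 (-0.86 ± 0.15). MRPL28, a counterpart of a bacterial large subunit protein, had 7.94, 7.82, 7.35 and 7.85 in FR104.Siro.F, against 9.03, 8.65, 8.81 and 8.59 in NoRx.F. For 27 genes the arrays did not overlap, as for 15.7% of all genes lower in this way. The count was 18 without NoRx.F replicate 50, and 21 without the FR104.Siro.F array of high control transcripts. Of 11 proliferation genes 9 fell alongside (median -1.83).

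MRPL12 also led FR104.F (-0.99 ± 0.19) and Bela.Siro.F (-0.96 ± 0.20) against NoRx.F. In Tac.Mtx.F the 5 genes were MRPS18C (-0.82), MRPS14 (-0.81), MRPL12 (-0.77), MRPL20 (-0.56) and MRPL1 (-0.51), and in Bela.F the 1 gene was MRPL28 (-0.65 ± 0.16). These 4 groups and FR104.Siro.F shared no batch with NoRx.F, and no within-batch value can be had. For them the batch term rests on the healthy controls, which hardly differed between batches in the deposited values. A batch effect on the transplant arrays alone cannot be told apart from the group difference. Single arrays moved the counts: without NoRx.F replicate 53 they were 14 in FR104.F, 11 in Tac.Mtx.F and 5 in Bela.F, and without NoRx.F replicate 50 they were 4, 3 and 0, and 3 in Bela.Siro.F. FR104.F had 3 without its replicate 23, 4 without its replicate 24 and 5 without NoRx.F replicate 52; Bela.Siro.F had 2 without its replicate 38 and 3 without its replicate 42; Tac.Mtx.F had 1 without its replicate 19; Bela.F had 2 without its replicate 47 and 0 without its replicate 57 or 46.

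NoRx.F was also set against Auto.D14, whose recipients were also transplanted without prophylaxis but with their own cells. In NoRx.F 5 genes were higher (1.9% of all genes): MRPS14 (0.88 ± 0.21), MRPL12 (0.86 ± 0.19), MRPL20 (0.64 ± 0.15), MRPL37 (0.64 ± 0.17) and MRPS12 (0.60 ± 0.16), with a family median of 0.37. MRPL12 had 9.88, 9.56, 9.68 and 9.45 in NoRx.F, against 8.84, 9.10 and 8.51 in Auto.D14, without overlap. The groups shared no batch and the day of the NoRx.F arrays is not given. Of 11 proliferation genes 5 were higher in NoRx.F as well. The count was 12 with the animal block, 14 without NoRx.F replicate 53, 3 without NoRx.F replicate 50 or 52, and 1 without Auto.D14 replicate 200.

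Adding Siro to another agent gave no called gene in this family. In FR104.Siro.D14 against FR104.D14 (4.45% of all genes called), in Bela.Siro.F against Bela.F (0.457%) and in the FR104 pair at the final sample (0.00847%), limma called 0 of 62 genes, with 4, 2 and 4 at an unadjusted p under 0.05. The family medians were -0.05, 0.01 and -0.14. For MRPL12 the 95% interval of the difference was -0.81 to -0.04 in Bela.Siro.F against Bela.F, -0.48 to 0.16 in FR104.Siro.F against FR104.F and -0.25 to 0.39 in FR104.Siro.D14 against FR104.D14. Those intervals leave room for changes as large as several seen above. The difference between the effects of adding Siro to FR104 and to Bela was tested as an interaction. There limma called 0 genes of the family and 3 of all 11807 genes, with 0 of the family at an unadjusted p under 0.05. The median was -0.14 over the family and 0.03 over all genes. With so few calls among all genes, the 0 says little about the family.

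Over time little passed. Auto.D36 against Auto.D14 had 1 gene lower (0.119% of all genes), MRPL52 (-0.76 ± 0.19), with 8.39, 8.29 and 8.13 in Auto.D36 and 9.17, 9.45 and 8.47 in Auto.D14. FR104.Siro.F against FR104.Siro.D14 had 1 gene lower (1.42%), MRPS6 (-0.46 ± 0.12), which lies near background. In Tac.Mtx.F against Tac.Mtx.D14 (0% of all genes called), Bela.Siro.F against Bela.Siro.D14 (0.0508%) and FR104.F against FR104.D14 (0%), limma called 0 genes of the family, with 0, 0 and 1 at an unadjusted p under 0.05. The later arrays all came from animals that also gave the earlier ones, and with the animal block the counts were 2 in Auto.D36 against Auto.D14, 3 in FR104.Siro.F against FR104.Siro.D14 and 0 in the other 3. Within the animals the day 36 array was higher than the day 14 array in 17, 42 and 13 of 62 genes in replicates 201, 200 and 202 of the autologous group, so the animals did not move alike. The MRPL52 call was lost without any of replicates 201 and 202 of Auto.D14 and 201, 200 and 202 of Auto.D36, and 6 genes were called without Auto.D14 replicate 200. The MRPS6 call was lost without FR104.Siro.D14 replicate 26, 29 or 27 or FR104.Siro.F replicate 27 or 26, and 2 genes were called without FR104.Siro.F replicate 29.

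For 24 of the 62 genes 35 further probe sets could be set beside those used, in NoRx.F against healthy controls. The sign was the same for 26 and opposite for 9, and 18 of the 35 passed on their own, 15 with the same sign and 3 with the opposite one. Of the 26 further probe sets whose mean over all arrays lay above the filter level, 22 had the same sign. Second probe sets gave similar rises for MRPL57 (1.00, but -0.21 on another), MRPS12 (1.09 and 0.90), MRPL51 (0.90 and 0.46), MRPS28 (0.92) and MRPL9 (0.83). For MRPL39 another probe set fell by 1.499 while the one used rose by 0.87, and for MRPS25 another fell by 0.72 while the one used rose by 0.40. For MRPS14 the other 2, both below the filter level, were at 0.41 and -0.00. For MRPS22, at -0.05 on the probe set used, another rose by 0.38, with a mean of 3.97, below the filter level. For MRPS26, at 0.13 on the probe set used, another with a mean of 9.07 rose by 0.56 (limma, adjusted p 0.0118). The directions of MRPL39 and MRPS25 therefore depend on the probe set. Among probe sets above the filter level, so does whether MRPL4, MRPL57, MRPS16, MRPS5 and MRPS26 passed. In other comparisons another probe set gave the opposite sign for MRPL44 in Tac.Mtx.F (-0.06 and -0.18), for MRPL57 in Siro.F (-0.20) and FR104.F (-0.14), and for MRPS26 in Auto.D36 (0.18), as it did for MRPS18C in NoRx.F (-0.14).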

How the data were processed

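RNA of CD3 T cells was hybridised to 81 single-channel Affymetrix arrays. The deposited values are log2 RMA signals, per the submitters' processing notes, which name RMA and affy without versions. Healthy controls differed less between batches than chance allows (61.0% of probe sets had a between-batch p above 0.95, where 5% would), so the values appear to have been adjusted for batch before deposit by a method not given in the sources used here, and the spread may be understated. Values ran from 1.52 to 16.7 and array medians from 5.12 to 5.31. The number of arrays limits the precision.

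Of 52865 probe sets 24969 named 1 gene, 361 several and 27535 none. The 62 symbols all matched a current RefSeq symbol through the Entrez ID. A gene entered the tests when 2 or more arrays exceeded 4.65, the 40th percentile of the whole table. The fit used limma 3.58.1 in R 4.3.3 (lmFit and eBayes with trend) on all 81 arrays with 1 coefficient per group and batch as a term, leaving 62 residual degrees of freedom. P-values were 2-sided and adjusted by the Benjamini-Hochberg method over the 11807 genes of each of 30 comparisons, with a threshold of 0.05, and the procedure was tested on simulated data.

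Replicate numbers are those of the animals in the labels, so arrays of 1 number come from 1 animal. Residuals of 15 pairs over time correlated at 0.205 to 0.575, the highest value being with the own animal in 15 of 15, and those of 17 pairs with the own healthy array at -0.186 to 0.332, in 3 of 17. The random block used statmod 1.5.0.

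Genes were named as the 6 largest called changes per direction in a comparison, a fixed set with known roles, genes whose probe sets disagreed, genes called against the usual direction, and those called most and least often. Members and lists were chosen with earlier results of these data known. Alternatives covered the batch term, the animal block, the filter, the probe set, quantile normalization, an RNA integrity covariate, single batches and omitted arrays. Sequences were not used here.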

Additional observations from a re-analysis of the deposited data

Results flagged for a closer look

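The change from healthy controls differed between groups for some genes of the family, by the direct contrast of the groups in the limma fit. It was higher in NoRx.F than in Auto.D14 for 5 genes (1.9% of all genes). It was lower than in NoRx.F for 27 genes in Siro.F (6.67% of all genes), 28 in FR104.Siro.F (13.1%) and 9 in FR104.F (4.12%). The same held for 6 genes in Bela.Siro.F (3.53%), 5 in Tac.Mtx.F (2.24%) and 1 in Bela.F (0.195%). These are the contrasts already reported above. In 26 sets of 4 to 10 arrays examined for a single array far from the others, 0 were found. Transplant groups of 2 or 3 arrays lay below that size, and single arrays still moved many counts, as given below.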

How the results depend on the processing

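Counts of called genes are given in the order of the setting and then the value reported. Without the batch term they were 15 against 6 in Auto.D14, 6 against 1 in Tac.Mtx.D14, 14 against 5 in Tac.Mtx.D30, 14 against 4 in Bela.Siro.D14, 17 against 11 in Bela.Siro.D30, 8 against 2 in FR104.D14, 20 against 8 in FR104.F, 15 against 6 in FR104.Siro.D14 and 7 against 4 in FR104.Siro.F, all relative to healthy controls. In the same setting NoRx.F relative to Auto.D14 had 17 against 5, and relative to NoRx.F Tac.Mtx.F had 11 against 5, Bela.F 5 against 1 and FR104.F 17 against 9. With the animal as a replicate block, the counts were 2 against 1 in Tac.Mtx.D14, 8 against 5 in Tac.Mtx.D30, 7 against 4 in Bela.Siro.D14, 5 against 2 in FR104.D14, 12 against 5 for NoRx.F relative to Auto.D14, 2 against 1 for Auto.D36 relative to Auto.D14 and 3 against 1 for FR104.Siro.F relative to FR104.Siro.D14; the other 23 counts stayed within 1.5 times. With the mean of a gene's probe sets they were 1 against 2 in FR104.D14, 3 against 5 for Tac.Mtx.F relative to NoRx.F and 1 against 0 for FR104.Siro.D14 relative to FR104.D14. After renewed quantile normalization they were 2 against 1 in Tac.Mtx.D14, 3 against 5 in Tac.Mtx.D30, 9 against 4 in Bela.Siro.D14, 4 against 2 in FR104.D14, 17 against 6 in FR104.Siro.D14, 8 against 5 for NoRx.F relative to Auto.D14, 11 against 5 for Tac.Mtx.F relative to NoRx.F, 1 against 0 for FR104.Siro.D14 relative to FR104.D14, where the family median was 0.09 instead of -0.05, and 0 against 1 for FR104.Siro.F relative to FR104.Siro.D14. With RNA integrity as a covariate they were 1 against 8 in Auto.D36 and 0 against 1 for Auto.D36 relative to Auto.D14. Within batch 1 alone Siro.F had 1 against 12, and within batch 2 alone NoRx.F had 11 against 50 and Siro.F relative to NoRx.F 0 against 27. Within batch 3 alone they were 0 against 1 in Tac.Mtx.D14, 2 against 5 in Tac.Mtx.D30, 1 against 4 in Bela.Siro.D14 and 2 against 6 in Bela.Siro.F. Within batch 4 alone they were 3 against 6 in Auto.D14, 2 against 8 in Auto.D36, 0 against 2 in FR104.D14, 0 against 6 in FR104.Siro.D14, 1 against 4 in FR104.Siro.F, and 0 against 1 for both Auto.D36 relative to Auto.D14 and FR104.Siro.F relative to FR104.Siro.D14; fits within a batch hold fewer arrays. With day 14 arrays alone FR104.Siro.D14 had 0 against 6, and FR104.Siro.F relative to it 0 against 1. Without arrays of high control transcript signal, a setting chosen after seeing the data, they were 0 against 6 in Auto.D14, 2 against 6 in Bela.Siro.F, 0 against 2 in FR104.D14, 2 against 6 for Bela.Siro.F relative to NoRx.F and 0 against 1 for Auto.D36 relative to Auto.D14; FR104.Siro.D14 had no array left. Omitting the filter moved 0 counts beyond 1.5 times.

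Leaving out each array of the compared groups in turn, healthy controls excepted, gave ranges relative to healthy controls of 40 to 50 in NoRx.F, 0 to 8 in Auto.D14, 1 to 4 in Auto.D36, 6 to 12 in Siro.F, 0 to 4 in Tac.Mtx.D14, 0 to 1 in Tac.Mtx.D30, 7 to 23 in Tac.Mtx.F, 8 to 29 in Bela.F, 0 to 4 in Bela.Siro.D14, 1 to 18 in Bela.Siro.D30, 0 to 2 in Bela.Siro.F, 0 to 4 in FR104.D14, 1 to 9 in FR104.F, 0 to 5 in FR104.Siro.D14 and 1 to 5 in FR104.Siro.F. Relative to NoRx.F the ranges were 13 to 30 in Siro.F, 1 to 11 in Tac.Mtx.F, 0 to 5 in Bela.F, 2 to 8 in Bela.Siro.F, 3 to 14 in FR104.F and 18 to 33 in FR104.Siro.F. NoRx.F relative to Auto.D14 had 1 to 14, Auto.D36 relative to Auto.D14 0 to 6, FR104.Siro.F relative to FR104.Siro.D14 0 to 2, and the 3 comparisons of added Siro and the other 3 of time 0 to 0.

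Of 115 called results of 30 named genes, 0 changed sign under leaving out an array or under the other settings on the same probe set, while 172 and 109 such values no longer passed, against 338 and 728 that did. On another probe set of the gene 22 values changed sign. These were, for MRPS14, -0.0045 in NoRx.F, -0.11 in Siro.F, -0.026 and -0.070 in Bela.F and -0.069 in FR104.F, and relative to NoRx.F 0.21 in Siro.F, 0.0078 in Bela.Siro.F and 0.20 in FR104.Siro.F. For MRPS18C they were -0.14 in NoRx.F, -0.12 in FR104.F and 0.38 in Tac.Mtx.F relative to NoRx.F. For MRPL57 they were -0.20 in Siro.F, -0.11 in Tac.Mtx.F, -0.047 in Bela.Siro.D30 and -0.14 in FR104.F. For MRPL44 they were -0.046 and -0.29 in Tac.Mtx.D30 and -0.061 and -0.18 in Tac.Mtx.F, for MRPS18A -0.14 and MRPS26 0.18 in Auto.D36, and for MRPL48 -0.061 in FR104.Siro.D14. The cause was not tested for any of these changes. Signals near the background limit what MRPS6 and MRPL49 can show.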
